A study of Homo sapiens with 6 samples.

Results

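The genes described here are 10 core components and regulators of the transcription factor NF-κB, chosen by name: the 5 subunit genes NFKB1, NFKB2, RELA, RELB and REL, the inhibitor genes NFKBIA, NFKBIB and NFKBIE, and the regulators TNFAIP3 and BIRC3. All 10 were found among the 58395 genes of the deposited table. Expression is given in FPKM (fragments per kilobase of transcript, scaled to the mapped fragments of the library). A mean of 1 FPKM over all 6 libraries was required for testing, which 9 of the 10 genes reached. REL did not. RNA sequencing had been done on 786-O cells, an established human clear cell renal carcinoma line without functional VHL. In 3 libraries, labelled sgPLOD2, the cells were a knockout of PLOD2, which encodes a lysyl hydroxylase that modifies collagen. The other 3, labelled sgControl, were control cells. Both were grown in RPMI-1640 medium with serum. The labels give neither the guide sequences nor whether the cells were pools or single clones, nor whether the replicates were grown separately. All p-values therefore describe the spread among these 6 libraries, part of which may be technical.

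NF-κB acts as dimers of Rel-homology proteins that are held in the cytoplasm by IκB proteins until a signal leads to IκB destruction. In the canonical branch, tumour necrosis factor or interleukin-1 signalling releases dimers such as RELA with p50, the product of NFKB1. In the non-canonical branch, receptors such as CD40 stabilise the kinase encoded by MAP3K14, and p100, the product of NFKB2, is processed to p52, the usual partner of RELB. Several genes of the system are themselves known NF-κB targets, among them NFKBIA, NFKB2, RELB, TNFAIP3 and BIRC3, so their mRNA is part of feedback loops. Renal carcinoma cells are known for sustained NF-κB activity.

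Across the series, FPKM summed to between 229485 and 268612 per library, and absolute depth is unknown. All 7 renal carcinoma line markers averaged at least 1 FPKM, against 0 of 6 leukocyte, 0 of 4 endothelial and 0 of 4 fibroblast markers. The summed leukocyte markers had 0.241 to 0.501 FPKM in sgPLOD2 and 0.138 to 0.167 FPKM in sgControl, and CD3E, VWF and DCN were listed at 0 throughout. The targeted gene PLOD2 had 5.98, 10.1 and 6.64 FPKM in sgPLOD2, against 26.8, 25.7 and 21.5 FPKM in sgControl (exact permutation test, 2-sided, p = 0.1, the smallest 3 against 3 libraries allow). The mitochondrial share of FPKM was 6.01% to 6.72% in the sgPLOD2 libraries, against 12.9%, 7.50% and 6.96% in sgControl, where replicate 1 stood apart. Median fold changes differed between chromosomes, on the log2 scale from -0.25 on chromosome 16 to 0.54 on chromosome 14 among the autosomes. In bulk RNA, fewer cells that express a gene and less of its RNA per cell cannot be told apart.

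Because several members are NF-κB targets, the stretches upstream of them that match the κB consensus, the DNA sequence that NF-κB dimers bind, were located in RefSeq promoter sequences of build GRCh38.p14. The window was the 250 bases before each annotated start, searched on both strands. Of the 10 genes, 8 matched an entry, with 13 windows between them. Of these 13 windows (up to 3 per gene) 8 held a match to the consensus, against 9.96% of all 35116 windows of this length. The 8 windows belong to 7 genes. Each line gives 30 bases, 5′ to 3′ on the strand of the gene, with matches in capitals (overlapping matches run together). The NFKB2 stretches belong to 2 of its 3 starts. They lie at chr4:102501300-102501329 (NFKB1), chr10:102394461-102394490, chr10:102394490-102394519, chr10:102395519-102395548 and chr10:102395674-102395703 (NFKB2), chr2:60881517-60881546 (REL), chr14:35404811-35404840 (NFKBIA, minus strand), chr19:38899931-38899960 (NFKBIB), chr6:137867188-137867217 (TNFAIP3), chr11:102317275-102317304 and chr11:102317339-102317368 (BIRC3), on the plus strand except for NFKBIA.
NFKB1, 49 bases upstream: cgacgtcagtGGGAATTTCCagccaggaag
NFKB2, start 2, 107 bases upstream: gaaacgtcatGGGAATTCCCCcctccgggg
NFKB2, start 2, 78 bases upstream: gggccgagaaGGGGCTTTCCcggccctgag
NFKB2, start 3, 176 bases upstream: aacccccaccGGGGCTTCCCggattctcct
NFKB2, start 3, 21 bases upstream: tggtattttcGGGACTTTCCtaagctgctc
REL, 47 bases upstream: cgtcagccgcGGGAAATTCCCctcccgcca
NFKBIA, 81 bases upstream: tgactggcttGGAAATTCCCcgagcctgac
NFKBIB, start 2, 28 bases upstream: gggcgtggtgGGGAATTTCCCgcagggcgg
TNFAIP3, 67 bases upstream: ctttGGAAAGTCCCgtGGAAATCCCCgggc
BIRC3, 199 bases upstream: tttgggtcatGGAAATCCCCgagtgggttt
BIRC3, 135 bases upstream: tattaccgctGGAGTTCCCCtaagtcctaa
The TNFAIP3 stretch holds a pair of matches side by side. A match describes the letters only, and genes with and without a difference between the groups carried them.

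More of these genes fell than rose in sgPLOD2. Of the 9 tested members, 5 fell (NFKB2, RELB, NFKBIB, NFKBIE and TNFAIP3), 1 rose (RELA) and 3 did not pass the test (NFKB1, NFKBIA and BIRC3). After subtraction of a trend on GC and length, fitted over all tested genes, 2 members fell (NFKB2 and TNFAIP3) and 1 rose. Of all 10469 tested genes 2412 then fell and 2239 rose. Under TPM 3 members fell and 1 rose, against 1827 and 3673 of all tested genes. With chromosome medians removed, 6 members fell and 0 rose, against 2546 and 2402 of all tested genes. The test was limma on log2(FPKM + 1) over all tested genes, 2-sided, at a Benjamini-Hochberg adjusted p under 0.05. Over all 10469 tested genes 23.5% fell and 29.5% rose, so 52.9% differed, and single calls among the members have to be read against that. The share of calls that were higher was 55.7% on the deposited scale, 66.8% under TPM (each library rescaled to the same total), 45.2% at a minimum of 5 FPKM, and 48.1% to 49.9% with other scalings, that is, median-of-ratios, quantile, chromosome medians removed or the trend on GC and length removed. The members' median log2 fold change was -0.35, that of all tested genes 0.06. Under TPM these medians were -0.23 and 0.20, and after the trend on GC and length was subtracted the members' median was -0.085, with that of all genes near 0. The changes were moderate, with the called members between 56.6% and 77.8% of the sgControl mean where they fell and at 137.9% for RELA. In 5 members every sgPLOD2 library lay below every sgControl library, as in 28% of all tested genes. In RELA, alone among the tested members, every sgPLOD2 library lay above, as in 34.7% of all tested genes. The same held for REL, which was not tested.

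**Figure D1:**
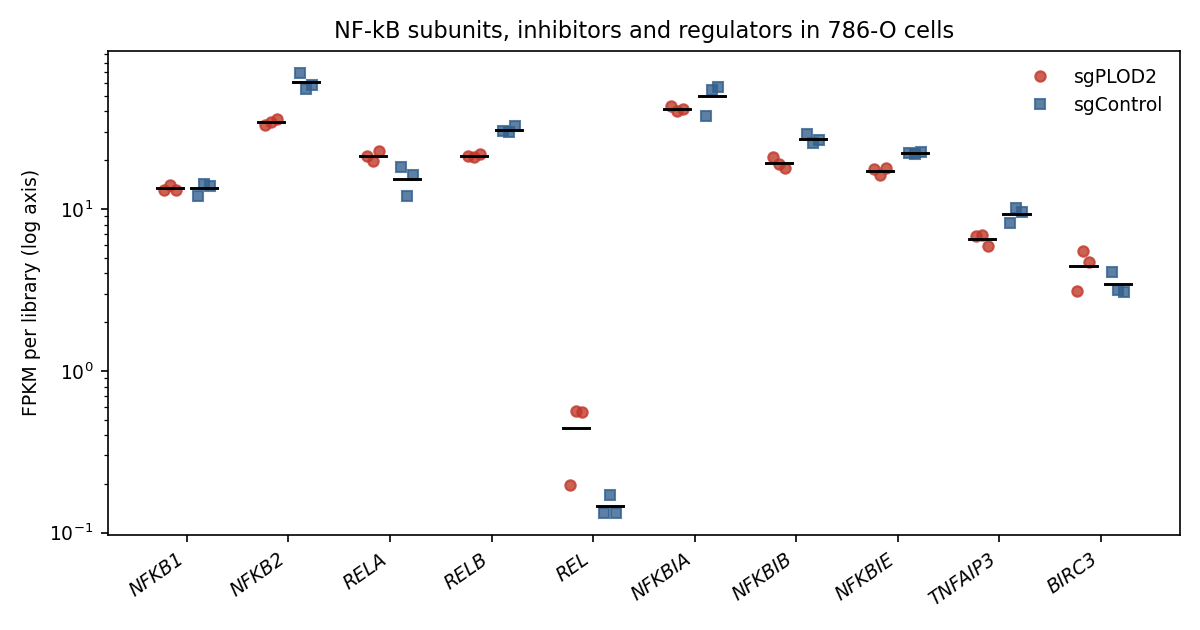
FPKM of the 10 genes in each library on a log axis, with sgPLOD2 as circles left of sgControl as squares and the group mean as a bar (n = 3 each). The NFKB2 circles sit between 33.2 and 35.8 FPKM, below all sgControl squares, while RELA circles lie above theirs and those of NFKB1 and NFKBIA among theirs.

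Among the 4 tested subunits, NFKB2 had the largest fold change in size on the deposited scale. After subtracting the GC and length trend, that of RELA was as large (0.58, against -0.57 for NFKB2). NFKB2 (ENSG00000077150; chromosome 10, 102394110 to 102402524, plus strand) encodes p100, which acts as an inhibitor before it is processed to p52. It had 33.2, 34.5 and 35.8 FPKM in sgPLOD2, against 69.4, 55.4 and 58.4 FPKM in sgControl. All sgPLOD2 libraries were low and close together, and the highest value was that of sgControl replicate 1. The fold change was -0.80 ± 0.10 (log2, SE) with a limma adjusted p of 0.000818. It kept its call under all 18 alternatives run, with fold changes from -0.92 to -0.57.

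RELB, which encodes the partner of p52, fell as well (ENSG00000104856; chromosome 19, 45001449 to 45038198, plus strand). RELB had 21.4, 20.8 and 21.8 FPKM in sgPLOD2, against 30.3, 30.0 and 32.6 FPKM in sgControl. The groups were far apart relative to their spread, at 21.3 ± 0.52 and 30.95 ± 1.43 FPKM (SD, n = 3 each; log2 fold change -0.52 ± 0.08, limma adjusted p = 0.00146). When the dependence of fold change on GC and transcript length was fitted over all tested genes and subtracted, however, its fold change was -0.02 (limma adjusted p = 0.844), and with chromosome medians removed it was -0.34 (0.00939). RELB had the most GC-rich longest transcript of the 10 genes, at 65.4%, followed by NFKB2 (62.4%), NFKBIE (61.0%) and NFKBIB (60.5%). All 4 were called lower. The other 6 had 34.8% (BIRC3) to 57.1% (RELA). The part of GC content in these differences was not tested.

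RELA rose and NFKB1 had the same mean in both groups. RELA encodes p65, the main activating subunit (ENSG00000173039; chromosome 11, 65653597 to 65663090, minus strand), and had 21.1, 19.7 and 22.8 FPKM in sgPLOD2, against 18.1, 12.0 and 16.1 FPKM in sgControl. The groups did not overlap, but the sgControl values were widely spread (log2 fold change 0.45 ± 0.15, limma adjusted p = 0.0355). RELA was not called without sgPLOD2 replicate 1, 2 or 3 or sgControl replicate 2 or 3 (limma adjusted p = 0.0590 to 0.110), and its fold change was 0.30 without sgControl replicate 2. Nor was it called with chromosome medians removed (0.26, limma adjusted p = 0.182), with median-of-ratios scaling (0.0682) or with no filter on low values (0.0866). NFKB1, which encodes p105 and p50 (ENSG00000109320; chromosome 4, 102501331 to 102617302, plus strand), had 13.14, 14.08 and 13.02 FPKM in sgPLOD2 and 12.1, 14.3 and 13.9 FPKM in sgControl. The libraries overlapped, and the fold change was 0.00 ± 0.09 (log2, SE; limma adjusted p = 0.979), with a sign that was negative under median-of-ratios scaling (-0.059), with chromosome medians removed (-0.20), after subtracting the GC and length trend (-0.17) and without sgPLOD2 replicate 2 (-0.03) or sgControl replicate 1 (-0.064).

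REL, which encodes c-Rel, a subunit best known from lymphocytes, had the lowest FPKM of the 10 genes (ENSG00000162924; chromosome 2, 60881521 to 60931612, plus strand). It had 0.198, 0.568 and 0.560 FPKM in sgPLOD2, against 0.133, 0.171 and 0.132 FPKM in sgControl. All sgPLOD2 libraries were above all sgControl libraries, by little in replicate 1. Being under the filter, REL was not part of the main test. With no filter its log2 fold change was 0.32 and limma gave an adjusted p of 0.0983. In the authors' deposited table, which compared normalized counts, the mean normalized count of REL was 520 and its log2 fold change 1.51 (adjusted p = 0.0002). Its longest annotated transcript has 11255 bases, and FPKM divides by length. Of the annotated exonic bases of REL, 43.3% are shared with AC010733.2 on the same strand, so reads could have been divided between both genes.

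Within each library, the make-up of subunit mRNA differed between the groups. The sum over the 5 subunits was 90.95 ± 2.72 FPKM in sgPLOD2 and 120.9 ± 9.02 FPKM in sgControl (SD, n = 3 each). Of it, NFKB2 and RELB together made up 61.3%, 61.7% and 61.3% in sgPLOD2, against 76.7%, 76.3% and 75.1% in sgControl. NFKB1 and RELA together made up 38.5%, 37.7% and 38.1% in sgPLOD2, against 23.2%, 23.5% and 24.8% in sgControl. The groups lay far apart on this scale and each varied by little. RELA alone had a share of 23.3 ± 1.19% in sgPLOD2 and 12.65 ± 1.67% in sgControl, and NFKB2 alone 37.96 ± 0.60% in sgPLOD2 and 50.4 ± 2.70% in sgControl (SD, n = 3 each). The share of RELB alone overlapped, at 24.0%, 23.2% and 23.2% in sgPLOD2 and 23.3%, 26.8% and 26.9% in sgControl. NFKB1 alone had 14.8 ± 0.92% in sgPLOD2 and 11.2 ± 1.74% in sgControl. Its mean FPKM was the same in both groups, so its larger share reflects the smaller sum. These shares are a description, since they restate the same FPKM values.

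**Figure D2:**
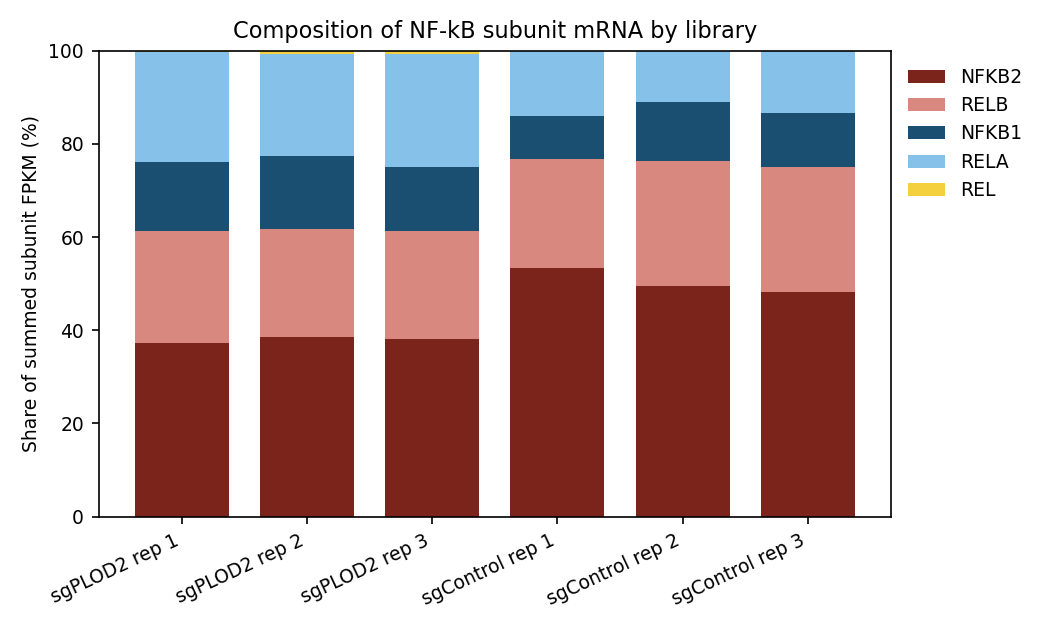
Share of each subunit gene in the summed FPKM of the 5 NF-κB subunit genes (%), 1 bar per library, with the 3 sgPLOD2 libraries on the left and the 3 sgControl libraries on the right. NFKB2 and RELB together fill about 61.4% of each sgPLOD2 bar and 76.1% of each sgControl bar on average, and REL is barely visible.

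The inhibitor genes NFKBIB and NFKBIE fell, and NFKBIA was not called. NFKBIB encodes IκBβ (ENSG00000104825; chromosome 19, 38899700 to 38908893, plus strand) and had 21.0, 18.8 and 17.8 FPKM in sgPLOD2, against 28.9, 25.7 and 26.7 FPKM in sgControl (log2 fold change -0.48 ± 0.09, limma adjusted p = 0.00491). NFKBIE encodes IκBε (ENSG00000146232; chromosome 6, 44258166 to 44265788, minus strand) and had 17.7, 16.2 and 17.9 FPKM in sgPLOD2, against 22.3, 21.7 and 22.6 FPKM in sgControl (-0.35 ± 0.08, limma adjusted p = 0.00852). Neither gene's groups overlapped. After subtracting the GC and length trend neither was called, at -0.18 for NFKBIB (limma adjusted p = 0.148) and -0.08 for NFKBIE (limma adjusted p = 0.433). NFKBIE was not called under TPM either (limma adjusted p = 0.0589). With chromosome medians removed the fold changes were -0.30 for NFKBIB (limma adjusted p = 0.0332) and -0.69 for NFKBIE (0.000546).

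NFKBIA encodes IκBα, the inhibitor that is resynthesised fastest after NF-κB activation (ENSG00000100906; chromosome 14, 35401513 to 35404749, minus strand). It had 43.1, 40.5 and 41.5 FPKM in sgPLOD2 and 37.6, 54.7 and 56.5 FPKM in sgControl. The sgPLOD2 libraries lay between sgControl replicate 1, which was low, and the other two sgControl libraries. The log2 fold change was -0.22 ± 0.16 (limma adjusted p = 0.265). Without sgControl replicate 1, the library with the high mitochondrial share, NFKBIA was called lower, at -0.41 on the log2 scale (limma adjusted p = 0.00423). It was also called lower with chromosome medians removed (-0.76, limma adjusted p = 0.00657), chromosome 14 having the highest median of the autosomes.

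Relative to RELA, each inhibitor mRNA was less abundant in sgPLOD2. The NFKBIA to RELA ratio of FPKM was 2.04, 2.05 and 1.82 in sgPLOD2, against 2.08, 4.54 and 3.51 in sgControl. The ratio of NFKBIB to RELA averaged 0.909 ± 0.114 in sgPLOD2 and 1.80 ± 0.292 in sgControl, and that of NFKBIE to RELA 0.814 ± 0.027 in sgPLOD2 and 1.48 ± 0.295 in sgControl (SD, n = 3 each). In none of the 3 ratios did the groups overlap, although for NFKBIA sgControl replicate 1 was close to the sgPLOD2 libraries. The 2-sided exact permutation test gave p = 0.1 for each (adjusted over the 3 ratios, 0.1), the smallest that 3 libraries against 3 allow. These are ratios of mRNA, and protein was not measured.

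The regulator TNFAIP3 fell, and BIRC3 was not called. TNFAIP3 encodes A20, a ubiquitin-editing enzyme that shuts off tumour necrosis factor signalling (ENSG00000118503; chromosome 6, 137867214 to 137883312, plus strand). It had 6.76, 6.91 and 5.90 FPKM in sgPLOD2, against 8.21, 10.1 and 9.62 FPKM in sgControl. The groups did not overlap (log2 fold change -0.45 ± 0.11, limma adjusted p = 0.0104). It missed the threshold under TPM (-0.37, limma adjusted p = 0.0569) while its fold change was -0.80 after chromosome medians, and -0.69 after the GC and length trend, had been subtracted. BIRC3 encodes cIAP2, a ubiquitin ligase of the receptor complexes (ENSG00000023445; chromosome 11, 102317450 to 102339403, plus strand), and had 3.13, 5.53 and 4.68 FPKM in sgPLOD2 and 4.10, 3.16 and 3.06 FPKM in sgControl. The libraries overlapped, with sgPLOD2 replicate 1 among the sgControl values and sgControl replicate 1 the highest of its group (0.28 ± 0.18, limma adjusted p = 0.241). Without sgPLOD2 replicate 1, BIRC3 was called higher (0.46, limma adjusted p = 0.0439).

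**Figure D3:**
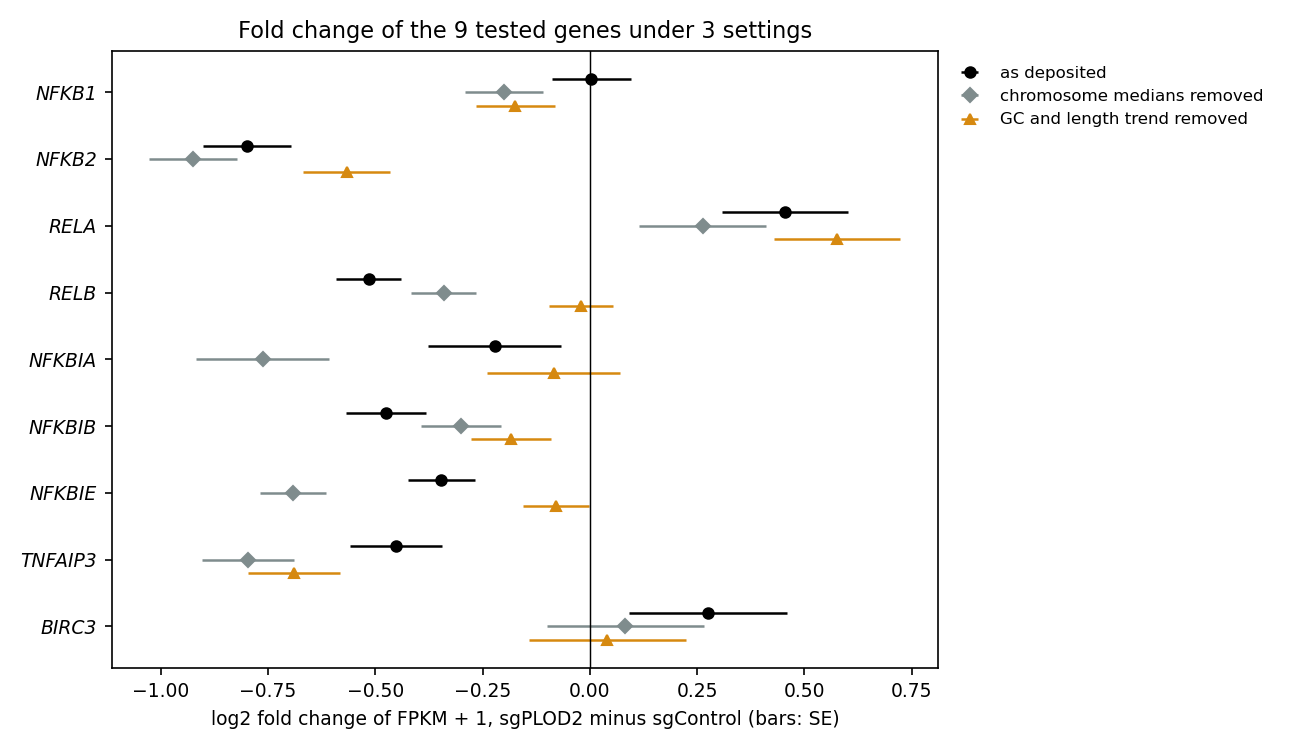
Fold change of each tested gene, sgPLOD2 minus sgControl on the log2(FPKM + 1) scale, with its SE, as deposited (black circles), with chromosome medians removed (grey diamonds) and after subtracting the GC and length trend (orange triangles). NFKB2 and TNFAIP3 stay well below 0 in each, whereas RELB lies at -0.02 once the GC and length trend is removed.

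By level, NFKBIA came first in sgPLOD2 at 41.7 FPKM, followed by NFKB2 at 34.5 FPKM, and no library of either gene reached the range of the other. In sgControl NFKB2 came first at 61.0 FPKM and NFKBIA second at 49.6 FPKM, with overlapping ranges. RELB, RELA, NFKBIB and NFKBIE followed in sgPLOD2 between 21.3 and 17.3 FPKM, and each overlapped its neighbour in that order. In sgControl the order was RELB, NFKBIB, NFKBIE and RELA, with separate ranges from 30.95 to 15.4 FPKM. NFKB1, TNFAIP3, BIRC3 and REL were the lowest in both groups, in this order. In sgControl the RELA and NFKB1 ranges overlapped.

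The authors' deposited table gave the same direction as limma for 8 of the 9 tested members, with NFKB1 at -0.09 on the log2 scale. At an adjusted p under 0.05 there, 5 members were lower, as were 17% of its 22870 genes with an adjusted p, and REL alone was higher, as were 18.5%. RELA did not pass in the authors' deposited table (0.37, adjusted p = 0.117). In the authors' deposited table NFKB2 had a log2 fold change of -0.91, RELB -0.63, TNFAIP3 -0.61, NFKBIB -0.59, NFKBIE -0.46 and NFKBIA -0.34, the last with an adjusted p of 0.154.

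The genes whose pattern over the 6 libraries was most like that of NFKB2, by Euclidean distance of centred log2(FPKM + 1) values, were NAPRT (0.0421), METRNL (0.0954), LCAT (0.0962), PLP2 (0.0976) and RNPEPL1 (0.104). Each was called lower in sgPLOD2, by a log2 fold change of -0.83 to -0.77. This follows from the choice, as they were picked for nearness to NFKB2 over the same 6 libraries. They lie on 5 chromosomes, none of them chromosome 10.

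Upstream of the subunits, the receptor genes CD40 and TNFRSF12A fell while the ligand genes TNFSF12 and LTB rose. Of 21 ligands and receptors 10 were tested, of which 2 rose, 4 fell and 4 were not called, with a median of -0.21 (-0.28 to 0.035 over 18 alternatives). This 60% called compares with 52.9% of all tested genes. CD40, a receptor of the non-canonical branch, had 11.9 ± 0.97 FPKM in sgPLOD2 and 28.4 ± 2.71 FPKM in sgControl (SD, n = 3 each; log2 fold change -1.19, limma adjusted p = 0.000153). TNFRSF12A, the receptor of the cytokine TWEAK, had 236 ± 14.6 FPKM in sgPLOD2 and 450.0 ± 22.9 FPKM in sgControl, with a fold change of -0.93, which was -0.44 after the GC and length trend was subtracted (limma adjusted p = 0.00641). TNFSF12, the TWEAK gene, had 3.07 ± 0.41 FPKM in sgPLOD2 and 0.177 ± 0.088 FPKM in sgControl, and LTB, which encodes lymphotoxin β, 2.59 ± 0.40 FPKM in sgPLOD2 and 0.333 ± 0.118 FPKM in sgControl. Both ligand genes reached the filter only through the sgPLOD2 libraries, where they are high, so the 2 rises are no support for a direction of the list. Likewise, IL18, called lower, reached it only through the sgControl libraries, where it is high, so its fall is no support either. LTBR, also called lower (-0.28, limma adjusted p = 0.0303), was not called under 9 of 18 alternatives. Among these were TPM (limma adjusted p = 0.154) and subtraction of the GC and length trend (0.259). At a minimum of 5 FPKM 0 genes of the list rose and 3 fell. A readthrough gene shares exons with TNFSF12, so its value is uncertain.

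Adaptor genes were called in both directions, about as often as all tested genes. Of 18 adaptors and ubiquitin ligases 15 were tested, and 2 rose, 6 fell and 7 were not called. The share called was 53.3%, against 52.9% of all tested genes, and the median 0.01 (-0.22 to 0.14 over the alternatives). After subtracting the GC and length trend, 3 fell and 2 rose (2412 and 2239 of all 10469 tested genes), but these were in part other genes. TRADD, SHARPIN, TAB1 and RBCK1 were no longer called lower, and TAB2 no longer higher (0.40, limma adjusted p = 0.0920). UBE2V1 was newly called lower (-0.40, limma adjusted p = 0.0259) and RNF31 newly higher (0.44, limma adjusted p = 0.0356). IRAK1, a kinase of interleukin-1 and Toll-like receptor signalling, had 103 ± 7.55 FPKM in sgPLOD2 and 218 ± 15.5 FPKM in sgControl. TRAF2, which acts with tumour necrosis factor receptors, had 24.5 ± 0.84 FPKM in sgPLOD2 and 40.6 ± 3.41 FPKM in sgControl, and its fold change of -0.70 was -0.40 after subtracting the GC and length trend. TRAF6, the ubiquitin ligase downstream of IRAK1, had 2.31 ± 0.12 FPKM in sgPLOD2 and 0.853 ± 0.112 FPKM in sgControl, which alone would not have met the filter. RBCK1, a subunit of the linear ubiquitin ligase, had a fold change of -0.56 (limma adjusted p = 0.00607), but -0.16 after subtracting the GC and length trend (0.307).

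All 8 kinases were tested. Of these, 2 rose, 4 fell and 2 were not called (75% called, against 52.9% of all tested genes), with a median of -0.16. The median depended on the setting, at -0.35 with quantile normalization and -0.38 after subtracting the GC and length trend. At a minimum of 5 FPKM it was -1.14, but over a smaller set, since only IKBKG, MAP3K8, IKBKE and MAP3K14 reach that minimum. With chromosome medians removed or with median-of-ratios or quantile scaling, 1 kinase gene rose in place of 2. IKBKG encodes NEMO, the scaffold of the IκB kinase complex, and had 8.76 ± 0.73 FPKM in sgPLOD2 and 22.1 ± 1.72 FPKM in sgControl (SD, n = 3 each; log2 fold change -1.24, limma adjusted p = 0.000106). A near-identical pseudogene copy of IKBKG is known, so its value is uncertain. IKBKE, a kinase of antiviral signalling, had 3.76 ± 0.21 FPKM in sgPLOD2 and 8.72 ± 0.083 FPKM in sgControl, and MAP3K8, which binds p105, 4.11 ± 0.74 FPKM in sgPLOD2 and 12.2 ± 1.44 FPKM in sgControl. MAP3K7 encodes TAK1, the kinase that activates the IκB kinases, and had 2.95 ± 0.29 FPKM in sgPLOD2 and 1.296 ± 0.314 FPKM in sgControl (log2 fold change 0.79, or 0.44 with chromosome medians removed). The catalytic subunit genes of the IκB kinase gave no firm difference. CHUK had 2.38 ± 0.10 FPKM in sgPLOD2 and 1.95 ± 0.68 FPKM in sgControl and was not called. IKBKB had 0.961 ± 0.016 FPKM in sgPLOD2 and 1.34 ± 0.198 FPKM in sgControl and passed at a limma adjusted p of 0.0493. Under 11 of 17 alternatives IKBKB did not pass, among them leaving out any library except sgControl replicate 1. It reached the filter only through the sgControl libraries, where it is higher, so its fall is no support for a direction of the list. MAP3K14, the kinase of the non-canonical branch, had 12.8, 15.2 and 22.2 FPKM in sgPLOD2, against 11.9, 10.9 and 10.4 FPKM in sgControl (limma adjusted p = 0.0473). It failed the threshold under 10 of 18 alternatives, including without sgPLOD2 replicate 3, where the fold change was 0.31, against 0.52 with it. TBK1 had 1.54 ± 0.105 FPKM in sgPLOD2 and 1.71 ± 0.53 FPKM in sgControl and was not called.

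For the ligase that marks IκB proteins for destruction, 2 of 5 genes rose, 1 fell and 2 were not called. The share called was 60%, against 52.9% of all tested genes, and the median 0.09 (-0.079 to 0.22 over the alternatives). The rises were in the F-box genes that recognise phosphorylated IκB. BTRC had 2.61 ± 0.076 FPKM in sgPLOD2 and 1.76 ± 0.108 FPKM in sgControl, and FBXW11 8.56 ± 0.40 FPKM in sgPLOD2 and 5.35 ± 1.09 FPKM in sgControl. Neither was called after subtracting the GC and length trend, at 0.00 for BTRC (rounded from just below 0, limma adjusted p = 0.976) and 0.31 for FBXW11 (0.0993). With that trend subtracted, 2 of the 5 genes were called lower, RBX1 (-0.40, limma adjusted p = 0.0117) and SKP1 (-0.65, 0.00958). As deposited, RBX1 fell (-0.34, limma adjusted p = 0.0182), and CUL1 and SKP1 were not called. RBX1 was not called with chromosome medians removed (-0.13, limma adjusted p = 0.276), under TPM (0.0871) or with quantile normalization (0.0524). Nor was RBX1 called without sgPLOD2 replicate 2 (0.0604), sgPLOD2 replicate 3 (0.0603) or sgControl replicate 3 (0.0668).

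Of 17 further inhibitors, including atypical IκB proteins, 16 were tested, and 5 rose, 7 fell and 4 were not called. The share called was 75%, against 52.9% of all tested genes. Their median was -0.11, or -0.33 after subtracting the GC and length trend and 0.0069 without sgControl replicate 2, its lowest and highest over the alternatives. ZC3H12A, which encodes the RNase regnase-1 that degrades inflammatory mRNA, had 12.7 ± 0.47 FPKM in sgPLOD2 and 32.3 ± 0.59 FPKM in sgControl (SD, n = 3 each; log2 fold change -1.28, limma adjusted p = 2.4e-05). TNIP2, a partner of A20, had 13.8 ± 1.68 FPKM in sgPLOD2 and 28.3 ± 3.26 FPKM in sgControl, and NFKBID, an atypical IκB gene, 2.09 ± 0.058 FPKM in sgPLOD2 and 4.18 ± 0.40 FPKM in sgControl. After subtracting the GC and length trend, the fold change was -0.64 for TNIP2, against -0.99 as deposited, and -0.33 for NFKBID, against -0.74. TAX1BP1, another A20 partner, rose to 7.62 ± 0.37 FPKM in sgPLOD2, against 3.60 ± 0.24 FPKM in sgControl.

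The list of 35 target genes of NF-κB was drawn up from textbook knowledge, with earlier results of these data known. Of these genes 32 were tested, and 20 fell, 4 rose and 8 were not called (75% called, against 52.9% of all tested genes). Of all tested genes 23.5% fell and 29.5% rose. After subtracting the GC and length trend, 21 of the target genes fell and 7 rose, against 2412 and 2239 of all 10469 tested genes. CCL5, CCL20 and TNFAIP6 reached the filter only through the sgControl libraries, where they are high, so their falls are no support for a direction of the list. The median log2 fold change of the 32 tested target genes was -0.60, that of all tested genes 0.06. The 4 smallest adjusted p-values were those of secreted factors, namely CCL20, CXCL2, TNFAIP6 and CSF2, with log2 fold changes of -3.58, -2.56, -3.29 and -3.01. The 4 that rose were CCL2, VCAM1, PLAU and CD83, with log2 fold changes of 0.54, 1.14, 1.12 and 0.99 (named after their values were seen). Many of these genes also respond to other transcription factors.

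**Figure D4:**
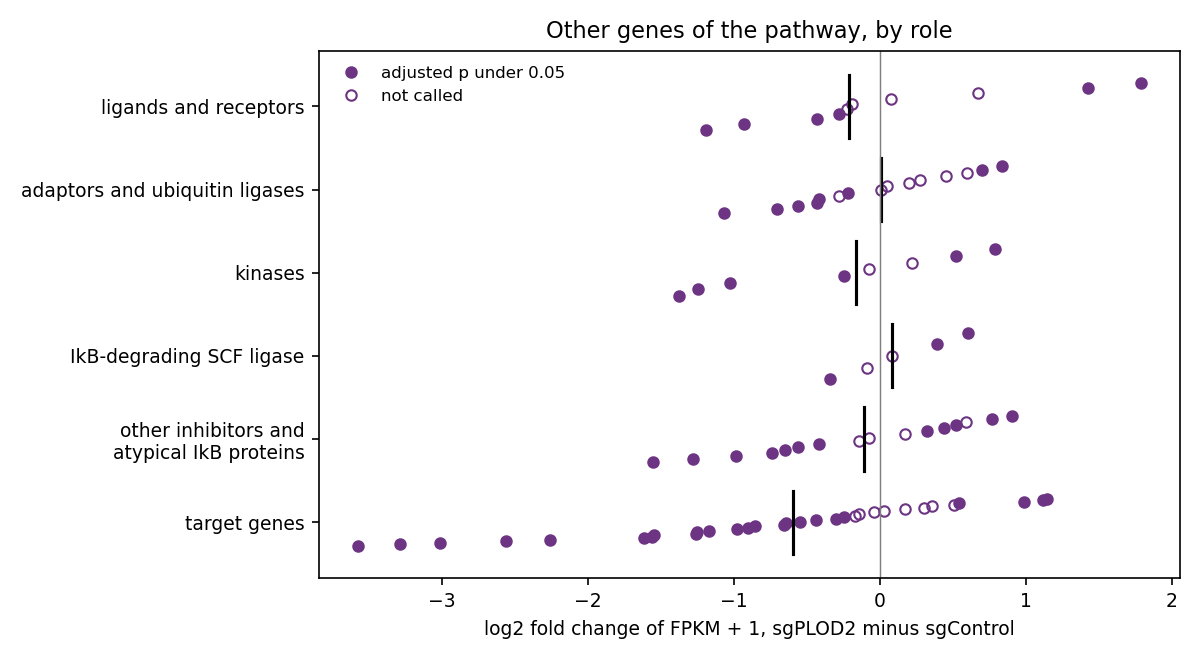
Log2 fold change of FPKM + 1, sgPLOD2 minus sgControl, for each tested gene of 6 lists of the pathway, with filled circles at an adjusted p under 0.05, open circles for genes not called and the list median as a vertical line. The target genes spread furthest to the left, with a median of -0.60, while the other medians lie between -0.21 and 0.09.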

How the data were processed

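Per the file headers, the authors deposited 1 FPKM value per gene and library and their own comparison: a mean normalized count (a signal averaged over libraries), p-values, a test score and log2 fold changes with standard errors. The submitters' processing notes name CASAVA, HISAT2 2.1.0, StringTie 1.3.4 and GRCh38 but not what each was used for. How reads were counted, with which strand setting and annotation release, is not given in the sources used here, so reads of overlapping or near-identical genes may have been split.

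The deposited FPKM values were moved to log2(FPKM + 1). Genes averaging 1 FPKM or more entered limma 3.58.1 (R 4.3.3; eBayes with an intensity trend), with Benjamini-Hochberg adjustment. Fold changes are sgPLOD2 minus sgControl and understate changes of weakly expressed genes. Chromosomes, exons, GC content and transcript length came from GENCODE 29. Exact permutation tests used scipy 1.17.1. Simulated data were used to test the limma code. Alternatives are listed in the closing section. The members, pathway lists and tests were chosen with earlier results of these data known. Named genes outside the members were the 4 with the smallest adjusted p per list, all kinases and ligase subunits, and the 5 nearest patterns to the tested member with the largest fold change on the deposited scale, NFKB2. Others were named after their values were seen.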

Additional observations from a re-analysis of the deposited data

How the results depend on the processing

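The count of members called lower was 5 as deposited, 6 with chromosome medians removed, 3 under TPM and 2 after subtracting the GC and length trend (mgcv 1.9.3). Over all 10469 tested genes these counts were 2456, 2546, 1827 and 2412, in that order. The count of members called higher was 1, and 0 with no filter, with median-of-ratios scaling and with chromosome medians removed. In the last 3 settings 4084 (of 28706), 2735 and 2402 of all tested genes rose. Leaving out each library in turn gave 0 to 1 higher and 5 to 6 lower. Of 161 fold changes of single members under alternatives, 140 kept direction and side of the threshold. The sign of NFKB1 was negative with median-of-ratios scaling (-0.059), chromosome medians removed (-0.20) and the trend on GC and length removed (-0.17), and its fold change was -0.064 to 0.046 without single libraries. Over all genes 3084 rose and 2456 fell (55.7% of calls higher, 66.8% under TPM, where the median fold change was 0.20 against 0.06), and 1361 rose at a minimum of 5 FPKM. Pseudocounts of 0.1 and 0.5, quantile normalization and robust or trend-free variance estimates left the members' counts as they were. PLOD2 stayed called lower under each alternative. With the replicate number as a block (replicate block), 2984 genes rose and 2335 fell, and the members' counts were the same. The numbers need not pair the samples: correlations of same-numbered deviations were 0.01, 0.14 and -0.05. Of 324 pathway list values, 49 moved. The causes of these shifts were not tested. Depth is unknown, which limits statements on weakly expressed genes such as REL.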

Other observations

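Several ligand and receptor genes of the pathway lay below the filter and were not tested, and are given here as values that were picked after they had been seen. IL1B, which encodes interleukin-1β, was listed at 0 in sgPLOD2 replicates 1 and 2 and had 0.00878 FPKM in replicate 3, against 0.468, 0.398 and 0.373 FPKM in sgControl. IL1A was listed at 0 in every sgPLOD2 library, against 0.202, 0.0615 and 0.0711 FPKM in sgControl. TLR2, a receptor for bacterial lipoproteins, had 0.616, 0.792 and 0.310 FPKM in sgPLOD2, against 0.0521, 0.0275 and 0.0579 FPKM in sgControl. TNFRSF1B, the second receptor for tumour necrosis factor, was listed at 0 in all 6 libraries, while TNFRSF1A had 20.1 ± 1.498 FPKM in sgPLOD2 and 23.4 ± 4.81 FPKM in sgControl (SD, n = 3 each) and was not called.

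The atypical IκB gene NFKBIZ, also named after its values were seen, had 1.45, 3.19 and 2.63 FPKM in sgPLOD2, against 7.47, 10.1 and 9.01 FPKM in sgControl. Its log2 fold change was -1.55 (limma adjusted p = 0.000974), and it was called lower under all 18 alternatives. BCL3, another atypical IκB gene, had 6.19 ± 0.31 FPKM in sgPLOD2 and 10.5 ± 2.73 FPKM in sgControl (SD, n = 3 each; limma adjusted p = 0.0128), and was not called after subtracting the GC and length trend (-0.06, limma adjusted p = 0.792).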
